A study of Homo sapiens with 7 samples.

Results

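CR2, the complement receptor that binds breakdown fragments of C3, was examined with 8 further complement genes in ACHN cells, an established human renal carcinoma line. The 8 were CR1, C3, CFB, CFI, C1S, CD46, CD55 and CD59. All probes that carry one of these gene names were taken, which gave 13 probes for 9 genes, of 42405 probes and 34809 gene names on the array. CR2 was chosen on its difference between the groups of these same arrays, where its probe had rank 10 of 20419 tested probes by log2 difference and rank 9 by the rank product. Its difference is therefore given as a description without a test. The probes next to it in that order belong to AKR1B10, with a log2 difference of 2.58, and DNAH10, with 2.56, against 2.57 for CR2. CR2 and DNAH10 were not well above background on the EV arrays, so these differences and the rank are set against background. Set against the floor described below, the folds in the main processing were 5.09 for CR2 and 2.52 for DNAH10. The fold for CR2 was smaller with normexp, described below. The other members were picked as complement genes after the results were known.

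The cells had been transduced with a pBabe-hygro retrovirus that was empty (ACHN-EV, 4 samples) or carried HOTAIR (ACHN-HOTAIR, 3 samples), a long non-coding RNA, and were then selected with hygromycin. Each sample was hybridised with 1 dye to 1 Agilent SurePrint G3 Human GE array, and all 7 arrays lay on the same slide. The EV samples occupied one row of the slide and the HOTAIR samples the other, and the effects of the row on the slide and of the group cannot be told apart. The labels do not say whether samples of a group came from separate cultures or transductions, so p-values measure only the spread between these samples, which may be technical. HOTAIR expression was driven by the vector in a single cell line, and the empty-vector cells carried the same selection marker. In such bulk RNA, fewer cells that express a gene and less RNA per cell cannot be told apart.

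Values are log2 processed intensities relative to the 75th percentile of the non-control spots of the same array, so that 0 is that percentile, and they compare arrays for 1 probe, never 1 probe with another. That percentile lay between 523 and 649 intensity units. The scanner software marked from 48.7% to 52.2% of the probes as well above background on an array and no spot as saturated. The number of arrays, 4 and 3, limits the precision of every difference below.

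Complement is a cascade of plasma and cell-surface proteins in which C3 is split by convertases, and the fragment left on a surface is read by receptors or degraded. CR1 and CR2 are among the receptors for these fragments. CR2 is best known on B cells, where it forms a coreceptor with partners such as CD81 and IFITM1, and on follicular dendritic cells. Healthy and malignant epithelial cells make some of the components themselves and carry the membrane regulators CD46, CD55 and CD59, which protect them from attack by complement.

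The identity of the samples was checked first. The HOTAIR probe (hg19, chr12:54356661-54356720, minus strand) was well above background on none of the EV arrays and on all 3 HOTAIR arrays. Against the floor described below for CR2, it was 9.32-fold higher in ACHN-HOTAIR cells. This is a description, since the probe entered the tested set only through that group. The paper's real-time PCR, another measure, gave a smaller rise in these cells. A nearby probe under another name, at chr12:54356419-54356478 on the same strand, was well above background on EV 1 and all 3 HOTAIR arrays. Its log2 difference was 3.75. The target gene did not go against the label of any array. All 8 renal epithelial markers were well above background on every array, among them PAX8 and PAX2, transcription factors of kidney development, the keratins KRT8 and KRT18, the epithelial adhesion molecule EPCAM, the kidney cadherin CDH16 and the endocytic receptor LRP2. None of them was called by limma (adjusted p under 0.05), beside 0.18% of all 16664 tested genes, those with a probe well above background throughout one group or both, with the lowest adjusted p at 0.531 for CDH16, whose log2 difference was -0.62. CDH16 and EPCAM, the latter with a log2 difference of -0.23, were lower on all HOTAIR arrays than on any EV array, where 8.05% of all tested genes had groups that did not overlap, and their part in the results below was not tested. The labelled cell type was thus borne out by its markers in both groups.

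The array carries a pair of CR2 probes, which are shown because they gave different readings. Both are annotated to the same CR2 transcripts on the plus strand of chromosome 1 in hg19. The upstream probe, at chr1:207658840-207658899, can be read without a stop codon until its last 3 bases, the TGA in capitals. The downstream probe, at chr1:207663116-207663175, starts 4216 bases beyond the end of the upstream one, and only its first 30 bases are given. The annotation on the array does not say in which exon either probe lies.
CR2 upstream probe: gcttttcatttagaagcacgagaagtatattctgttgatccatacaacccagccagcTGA
CR2 downstream probe, first 30 bases: gtacaattcaggctttggatgtttctttag

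At the downstream probe, CR2 stood at -6.83, -5.80, -6.14 and -6.54 in the 4 ACHN-EV samples. In the 3 ACHN-HOTAIR samples it stood at -4.05, -3.82 and -3.41. Every HOTAIR array was above every EV array, and the probe was well above background on all HOTAIR arrays and on no EV array. The mean was -6.33 ± 0.45 (SD, n = 4) in ACHN-EV cells and -3.76 ± 0.33 (SD, n = 3) in ACHN-HOTAIR cells, which differ by 2.57 on the log2 scale. Since the EV level is only a bound, CR2 was at least 5.09-fold higher in ACHN-HOTAIR cells with the software's own background subtraction. With normexp, described below, the bound was 1.47-fold. The bound sets the HOTAIR mean against, on each EV array, the higher of the probe's own value and the lowest value of a probe well above background there. The probe entered the tested set only through the group in which it was high.

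The rise at this probe was seen at both of its spots. The processed intensities of the first spot were 3.58, 6.67, 9.76 and 3.64 in EV 1 to EV 4, and 39.6, 40.4 and 52.5 in HOTAIR 1 to HOTAIR 3. At the second spot the EV arrays read 9.14, 13.6, 6.70 and 8.67, and the HOTAIR arrays read 37.6, 38.04 and 53.4. The lowest HOTAIR spot was thus above the highest EV spot, and the 2 spots lay closer together on each HOTAIR array than on any EV array. HOTAIR 3 had the highest value at both spots and also the highest value of the HOTAIR probe, and a link between these was not tested. Over all tested probes, the deviations of HOTAIR 3 from its group mean correlated with those of EV 2 (r = 0.619). EV 2 had the highest mean of the spots among the EV arrays, at background.

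**Figure D1:**
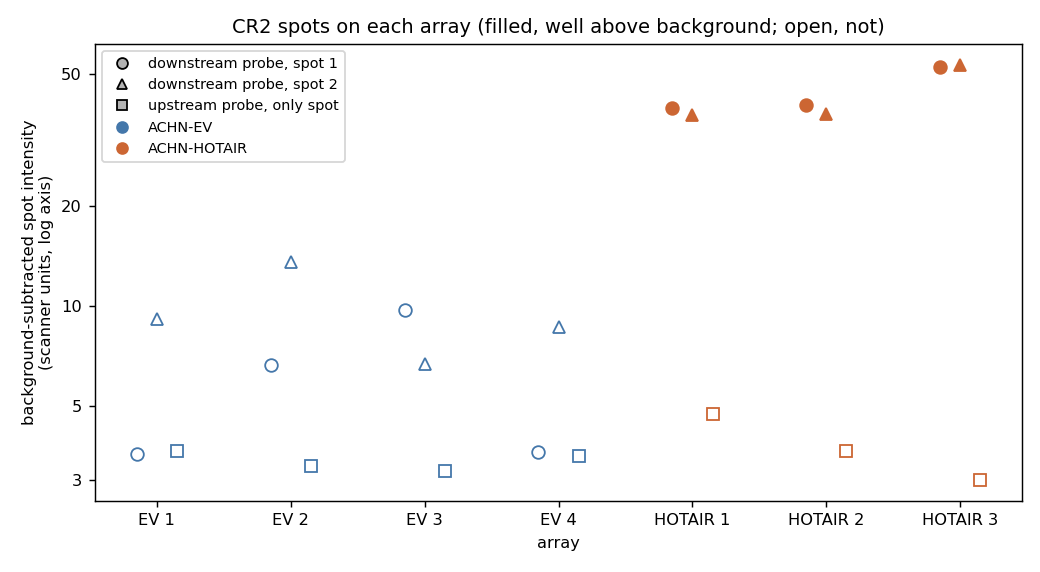
Background-subtracted intensity of the CR2 spots on each array, in scanner units on a log axis, with filled symbols for spots well above background and open symbols for others. The downstream probe (circles, triangles) lies between 3.58 and 13.6 on the EV arrays and between 37.6 and 53.4 on the HOTAIR arrays, while the upstream probe (squares) stays between 2.99 and 4.74.

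The upstream CR2 probe did not show this difference. It has 1 spot, and its values were -7.47, -7.32, -7.48 and -7.21 on the EV arrays and -7.08, -7.24 and -7.55 on the HOTAIR arrays. The groups overlapped, and none of the 7 arrays had the probe well above background, which gives only an upper bound for both groups. The difference described for CR2 therefore rests on 1 of its 2 probes.

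The size of the CR2 difference was smaller with normexp, which replaces the software's own background subtraction and adds an offset of 50 intensity units, more than the intensity of any CR2 spot on the EV arrays. In that setting the log2 difference was 0.57 and the fold against the floor was 1.47. The parts of the correction and of the offset in this were not tested separately. Over the 5 other settings in which the downstream probe was tested with all arrays, apart from the replicate block, it ranged from 2.48 to 2.61, and with each array left out in turn from 2.39 to 2.74. The direction was the same in all of these.

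**Figure D2:**
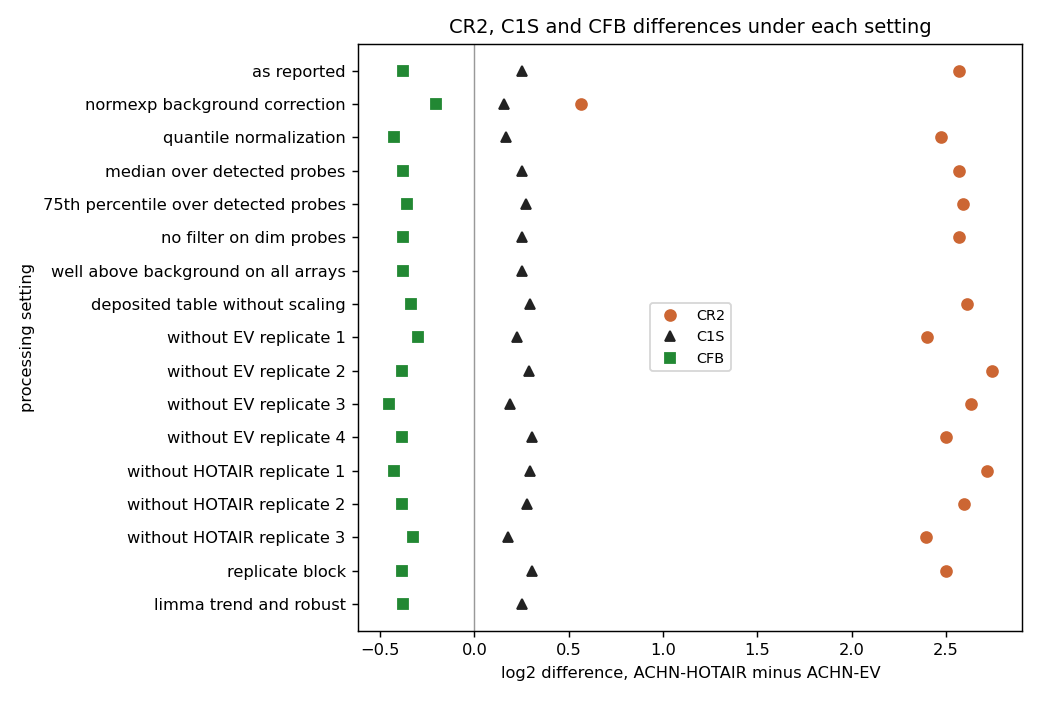
Log2 difference between ACHN-HOTAIR and ACHN-EV cells for CR2 (circles), C1S (triangles) and CFB (squares) under each processing setting, where positive values are higher in ACHN-HOTAIR cells. CR2 lies at 0.57 with normexp and between 2.39 and 2.74 otherwise, and has no point under limma's trend and robust options, which change only the test, or where a probe had to be well above background on all 7 arrays. C1S stays above 0 and CFB below 0 throughout.

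CR1, the receptor for C3b and C4b that lies next to CR2, gave no usable level. Its probe, on chromosome 1 from 207813016 to 207813075, read -7.44, -6.43, -7.14 and -6.56 on the EV arrays and -6.41, -5.57 and -7.22 on the HOTAIR arrays. Only HOTAIR 2 was marked as well above background, and this came from 1 of its 2 spots, with an intensity of 43.8 against 3.08 for the other. The groups overlapped and the probe was not tested.

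Among the 8 members other than CR2, 6 had a tested probe and none was called at an adjusted p under 0.05 by limma, against 0.18% of all 16664 tested genes. One of them, CFB, had an unadjusted p under 0.05, against 6.11% of all tested genes, and no member passed the exact Mann-Whitney U test, whose smallest possible p here was 0.0571. In 1 member, C1S, all HOTAIR arrays lay above all EV arrays, and in 1, CFB, below, where 8.05% of all tested genes had groups that did not overlap in either direction. The median log2 difference of the 6 was 0.02, and that of all tested genes was 0.01.

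**Figure D3:**
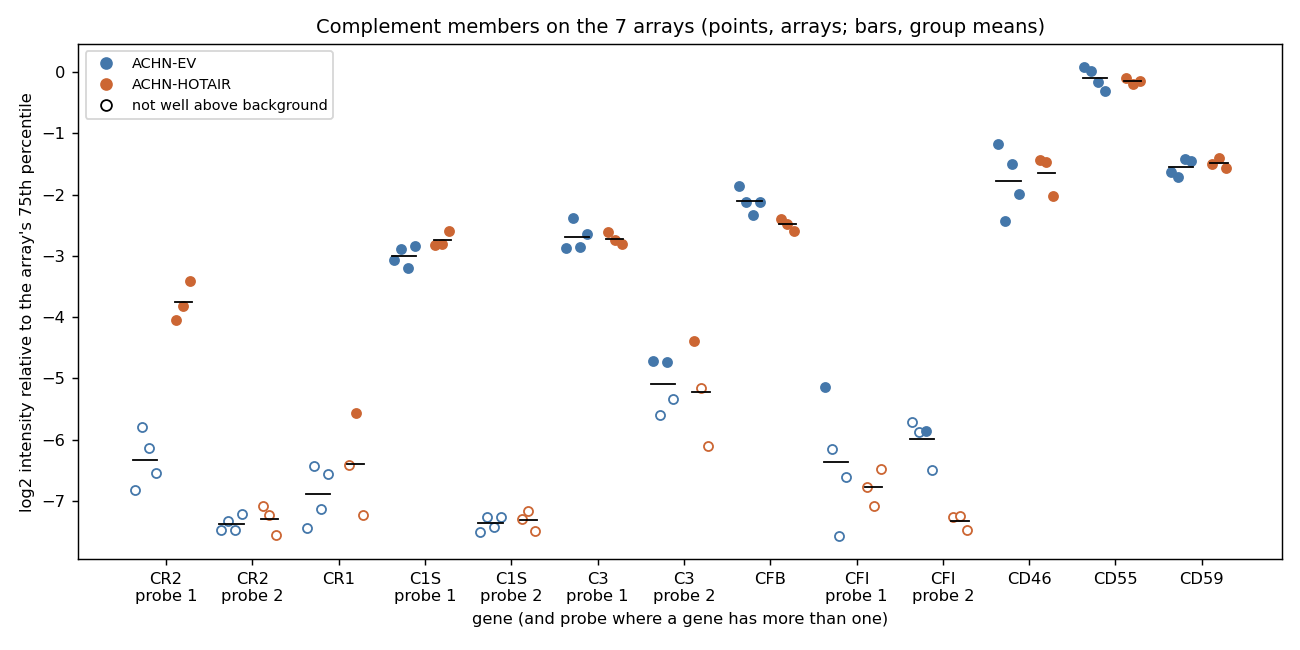
Log2 intensity relative to the 75th percentile of each array for the 13 probes of the 9 genes, with 1 point per array (blue, ACHN-EV; orange, ACHN-HOTAIR; open, not well above background) and bars at the group means. The groups are apart at CR2 probe 1 (the downstream probe), C1S probe 1, CFB and CFI probe 2, and at the last of these 6 of 7 points are not well above background.

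CFB encodes factor B, which carries the protease of the alternative pathway convertase. Its values were -1.86, -2.11, -2.33 and -2.12 on the EV arrays and -2.39, -2.48 and -2.59 on the HOTAIR arrays. All HOTAIR values were lower, but the gap between the highest of them and the lowest EV value was smaller than the SD of either group. The log2 difference was -0.38 (95% interval from -0.69 to -0.06, limma adjusted p = 0.728, unadjusted p = 0.0242), which did not pass the threshold. The probe, shown because it carries the lowest unadjusted p among the 6, has no position in the array's annotation.
CFB probe: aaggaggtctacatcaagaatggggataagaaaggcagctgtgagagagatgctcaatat

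C3, the central component, did not separate the groups. Its brighter probe read -2.87, -2.38, -2.86 and -2.63 on the EV arrays and -2.61, -2.75 and -2.81 on the HOTAIR arrays. The difference of -0.04 had a 95% interval from -0.38 to 0.31 on the log2 scale (limma adjusted p = 0.993) and turned positive in 3 alternatives. A second C3 probe, at chr19:6686136-6686195 on the minus strand, was well above background on EV 1, EV 3 and HOTAIR 1 only, and its groups overlapped too.

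C1S encodes one of the serine proteases of the first component of the classical pathway. Its probe on chromosome 12, from 7178093 to 7178152, read -3.07, -2.88, -3.19 and -2.84 on the EV arrays and -2.83, -2.80 and -2.60 on the HOTAIR arrays. The HOTAIR values were all higher, the lowest of them by about 0.01. The log2 difference was 0.25 (95% interval from -0.05 to 0.55, limma adjusted p = 0.926). On no array was the other C1S probe well above background.

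CFI encodes factor I, the protease that degrades C3b with a cofactor such as CR1 or CD46, and neither of its probes was tested. The probe on chromosome 4 from 110662064 to 110662123 read -5.71, -5.88, -5.85 and -6.49 on the EV arrays and -7.26, -7.25 and -7.47 on the HOTAIR arrays. The HOTAIR values were all lower, but the probe was marked as well above background on EV 3 only, from 1 of 2 spots with intensities of 18.4 and 5.31. At the other probe, which was well above background on EV 1 only, the groups overlapped. No fold is given, since 6 of 7 arrays hold only a bound at either probe.

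The 3 membrane regulators were well above background on every array and none of them separated the groups. CD55, which speeds the decay of the convertases, read 0.08, 0.03, -0.15 and -0.30 on the EV arrays and -0.10, -0.19 and -0.15 on the HOTAIR arrays. Its log2 difference was -0.06 with a 95% interval from -0.35 to 0.23 (limma adjusted p = 0.993), and it was 0.07 with normexp. The HOTAIR values lay inside the range of the EV values.

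CD46, the cofactor for factor I, had the widest spread of the 3, with -1.16, -2.43, -1.50 and -1.99 on the EV arrays and -1.43, -1.47 and -2.03 on the HOTAIR arrays. The log2 difference of 0.13 had a 95% interval from -0.60 to 0.85 (limma adjusted p = 0.993) and became -0.01 with normexp and -0.09 without EV 2. The sign of the CD46 difference thus changed both with normexp, whose correction and offset were not tested separately, and with 1 array left out. CD59, the inhibitor of the membrane attack complex, read -1.63, -1.71, -1.41 and -1.45 on the EV arrays and -1.50, -1.39 and -1.56 on the HOTAIR arrays. Its log2 difference was 0.07 with a 95% interval from -0.21 to 0.34 (limma adjusted p = 0.993). These intervals leave room for differences of up to 0.35 in size for CD55 and CD59 and of up to 0.85 for CD46.

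The rest of the complement system was looked at through 51 further genes, of which 50 had a probe, 13 were tested and 35 were well above background on none of the arrays at the probe that stands for the gene. None of the 13 was called by limma, beside 0.18% of all tested genes. The Mann-Whitney U test could call no gene here, since its smallest possible p was 0.0571. In 1 of the 13, C5, the unadjusted limma p was under 0.05, beside 6.11% of all tested genes. The median log2 difference of the 13 was -0.01, in a range from -0.56 to 1.43. Groups that did not overlap were found in 1 of them, CFD, which was lower in ACHN-HOTAIR cells, beside 8.05% of all tested genes. These counts are near those shares.

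In the classical pathway, C1R, the partner protease of C1S, differed by -0.07 on the log2 scale at its brighter probe. At its second tested probe it differed by -0.29 (limma adjusted p = 0.88), with groups that overlapped. C2 differed by -0.21, and C1QA, C1QB, C1QC and C4B were not well above background. In the lectin pathway COLEC10 differed by 0.19, and MASP2, MBL2, FCN2, FCN3 and COLEC11 were well above background on none of the arrays. MASP1 and FCN1 were so on HOTAIR 3 only, at 1 of their 2 probes each, with values of -5.27 and -5.36, and were not tested. In the alternative pathway CFD, the protease that activates factor B, had a log2 difference of -0.21 (limma adjusted p = 0.926) and CFP, the stabiliser properdin, one of 0.35 (limma adjusted p = 0.88). Thus neither of them passed the threshold.

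Of the terminal components only C5 and C8G were tested. C5 read -2.53, -2.28, -2.67 and -3.18 on the EV arrays and -3.32, -3.26 and -3.11 on the HOTAIR arrays. EV 4 lay inside the HOTAIR range, so that the groups overlapped. The log2 difference of C5 was -0.56 (95% interval from -1.05 to -0.08, limma adjusted p = 0.753, unadjusted p = 0.0283). That of C8G was -0.12 at its brighter probe and 0.11 at its second tested probe. C6, C7, C8A, C8B and C9 were well above background on none of the arrays.

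Of the 13 soluble regulators, 3 were tested. SERPING1, the inhibitor of C1R and C1S, differed by 0.20, the chaperone clusterin (CLU) by 0.26 and vitronectin (VTN) by 0.25, with adjusted p-values of 0.949 or more by limma. The other 10 were not well above background, among them C4BPA, C4BPB, CPN1 and CPN2. Of the 5 further membrane regulators listed, CSMD1, CSMD2, CSMD3, SUSD4 and CR1L, none was tested.

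Among the 9 other receptors and receptor chains, C3AR1, ITGB2 and C1QBP were tested. C3AR1, the receptor for the anaphylatoxin C3a, had the widest spread of the tested complement genes. Its values were -3.66, -5.22, -2.06 and -1.09 on the EV arrays and -1.70, -1.52 and -1.53 on the HOTAIR arrays. The HOTAIR arrays lay close together, inside the range of the EV arrays. The log2 difference of 1.43 therefore had a 95% interval from -0.62 to 3.48 (limma adjusted p = 0.948). ITGB2, the beta chain of the integrin receptors for C3 fragments, differed by -0.25, while its partners ITGAM and ITGAX were not tested. C1QBP differed by -0.01. C5AR1, C5AR2, VSIG4 and CD93 were well above background on none of the arrays.

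**Figure D4:**
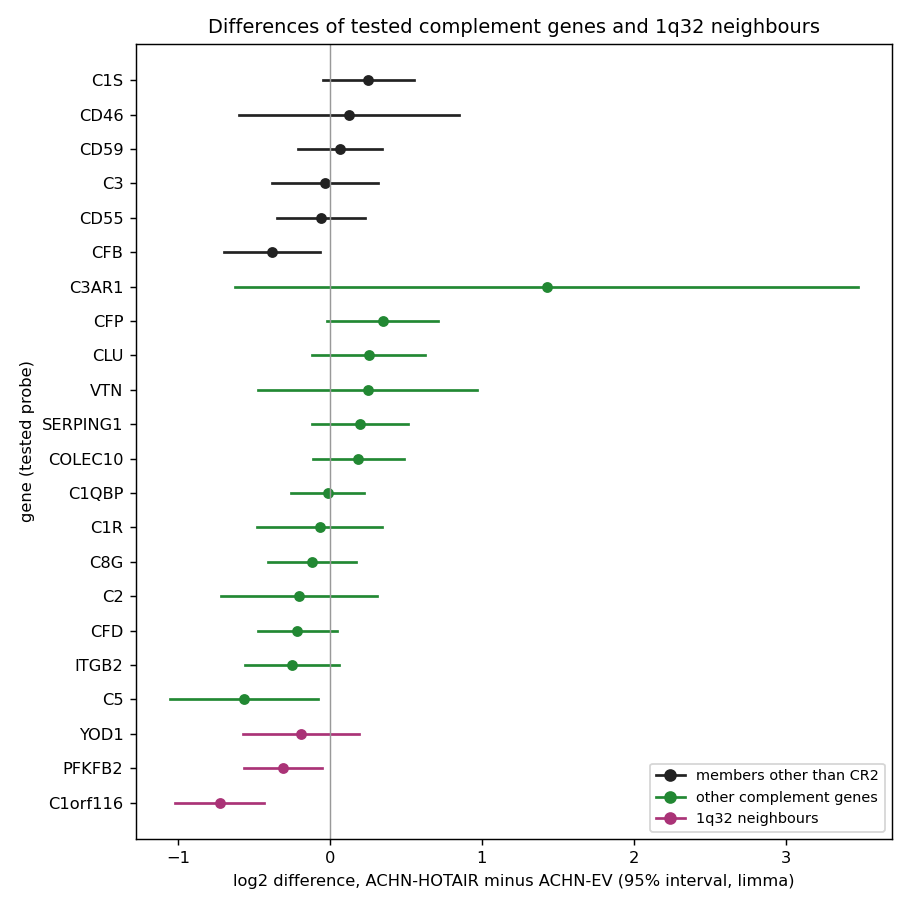
Log2 difference between ACHN-HOTAIR and ACHN-EV cells (points) with the 95% interval from limma (lines) for the 6 tested members other than CR2, the 13 other tested complement genes and 3 tested neighbours on 1q32. The intervals of CFB, C5, PFKFB2 and C1orf116 lie below 0 before adjustment, none of the genes passed an adjusted p of 0.05, and C3AR1 has the widest interval.

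CR2, CR1, CD46 and CD55 belong to a cluster of complement regulator genes on chromosome 1, band 1q32, whose neighbours were read in the order of the RefSeq gene table of GRCh38.p14. CD55 is the protein-coding gene before CR2, and CR1, CR1L and CD46 follow it. Of the 10 genes read there other than the members, 3 were tested and 7 were well above background on none of the arrays. The 7 were PIGR, FCAMR, C4BPB, C4BPA, CR1L, CD34 and PLXNA2. The nearest neighbours of CR2 thus either did not separate the groups (CD55, CD46) or gave no usable level (CR1, CR1L).

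The 3 tested neighbours were all lower in mean in ACHN-HOTAIR cells, and none was called by limma, beside 0.18% of all tested genes. In 2 of them the groups did not overlap and the unadjusted p was under 0.05, beside 8.05% and 6.11% of all tested genes, and with 3 genes nothing is read from these counts. C1orf116 read -2.43, -2.56, -2.83 and -2.73 on the EV arrays and -3.30, -3.38 and -3.41 on the HOTAIR arrays. Its log2 difference was -0.73 (95% interval from -1.02 to -0.43, limma adjusted p = 0.122). PFKFB2, an enzyme that regulates glycolysis, differed by -0.31 without overlap at its brighter probe (limma adjusted p = 0.736). YOD1, a deubiquitinase, differed by -0.19 with overlap.

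**Figure D5:**
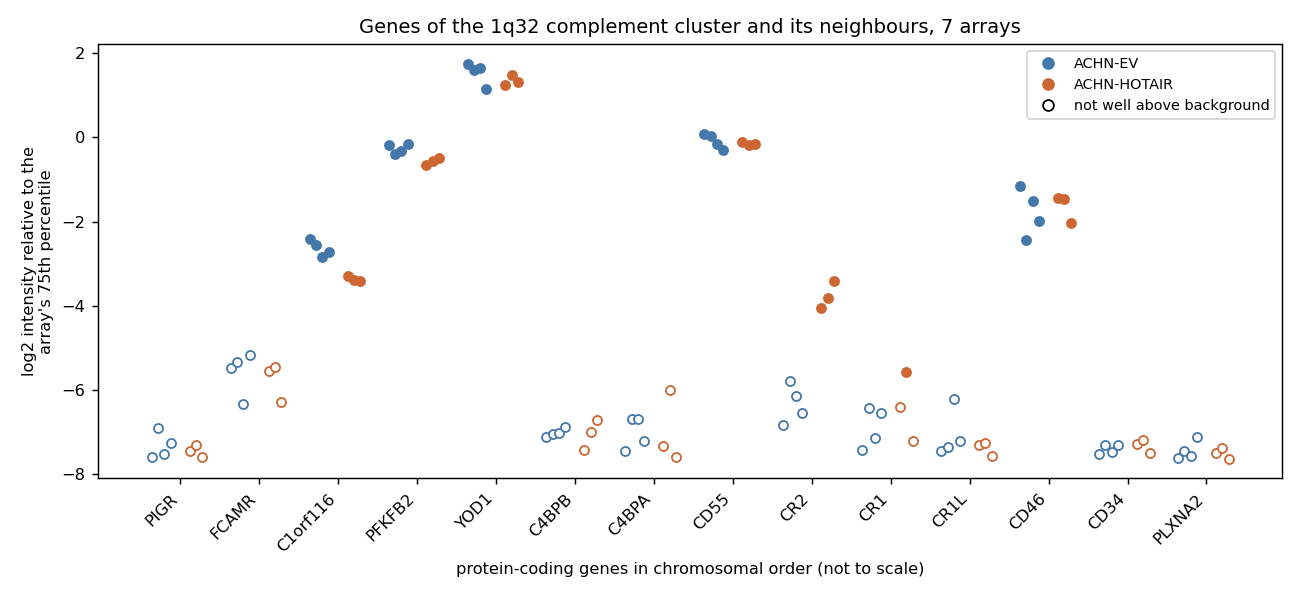
Log2 intensity relative to the 75th percentile of each array for the protein-coding genes around CR2, in chromosomal order and not to scale, with 1 point per array (blue, ACHN-EV; orange, ACHN-HOTAIR; open, not well above background). CR2 is the gene that is open on every EV array and filled on every HOTAIR array, and CD55 and CD46 overlap between the groups.

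The partners and usual cell types of CR2 were then read. CD81, a tetraspanin found on most cells, differed by -0.05 and IFITM1, an interferon-induced membrane protein with near-identical relatives, by -0.29 on the log2 scale at its brighter probe (limma adjusted p = 0.906). The groups did not overlap there, where 8.05% of all tested genes had such groups, and overlapped at the second IFITM1 probe, with a difference of -0.28. Of 10 B cell markers, 9 were well above background on none of the arrays, among them MS4A1, CD79B, CD22, PAX5, BLK, FCER2, CD72 and POU2AF1. CD79A was the exception, well above background on all arrays, and read -0.40, -0.57, -0.07 and 0.32 on the EV arrays and 0.21, 0.06 and 0.21 on the HOTAIR arrays. Its groups overlapped (limma adjusted p = 0.949).

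Of the follicular dendritic cell markers, FDCSP and CXCL13 were not well above background in either group. CLU was, and is also listed among the complement genes. Of 4 leukocyte markers with a probe, CD3E was not well above background in either group. CD14 and CD68 differed by 0.12 and 0.01 on the log2 scale. PTPRC was not tested. Its brightest probe was well above background on EV 2, EV 3 and HOTAIR 3 only, another on EV 1 only and another on HOTAIR 1 only. On the HOTAIR arrays, where CR2 was raised, CD79A and CLU were thus the only markers of B cells and follicular dendritic cells listed here that were well above background.

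Genes whose values ran most like those of the downstream CR2 probe were listed by Pearson's r over the 7 arrays, which contain the group difference itself, so that r is a description. They were ZNF469 (r = 0.998), SLC16A9 (0.994), KIT (0.989), SYK (0.984) and TCF7 (0.982). The receptor tyrosine kinase gene KIT read -7.12, -6.01, -6.76 and -6.96 on the EV arrays and -4.80, -4.81 and -4.05 on the HOTAIR arrays. The kinase gene SYK read -3.90, -3.40, -3.60 and -3.39 on the EV arrays and -2.12, -2.09 and -1.78 on the HOTAIR arrays. Both had their highest value on HOTAIR 3, as CR2 did. KIT, like CR2, was well above background on none of the EV arrays, so that the EV values of both are at background. Every r above uses the EV values of CR2, so that part of each r is at background. Nothing is read from the order of the genes by r. Of the 4 EV arrays, 2 had TCF7 well above background, and all 4 had ZNF469, SLC16A9 and SYK so. ZNF469, SLC16A9 and TCF7 had smaller log2 differences of 0.58, 0.90 and 0.67.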

How the data were processed

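RNA of 4 ACHN-EV and 3 ACHN-HOTAIR samples was labelled with Cy3 and hybridised to single-colour arrays. The authors deposited the output of Agilent Feature Extraction 10.7.3.1 for each array, with a background-subtracted intensity, a raw mean intensity and calls for each spot, annotated on hg19, and a value table of 62969 spots whose intensities lay within 0.498% of these.

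With R 4.3.3 and limma 3.58.1, log2 intensities were centred on each array's 75th percentile over non-control spots. Under 50% of the probes were well above background on 3 arrays, so the percentile over detected probes was an alternative. Spots marked as outliers (408 to 600 an array) were left out, and spots of a probe were averaged. A probe was well above background where as many of its remaining spots were so marked as not, or more. Tested were the 20419 probes that every array of one group or of both had well above background, by lmFit and eBayes, and p-values were adjusted by Benjamini-Hochberg over all of them. The brightest tested probe stood for a gene, 16664 in all. The test was checked on simulated arrays.

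The members and gene lists were chosen with earlier results of these data known. Named were all members, listed genes with a probe (some are counted but not reported by name here), and the 5 genes with the highest correlation with CR2. Alternatives were normexp (offset 50), quantile and other scalings, other filters, the deposited table, each array left out, a replicate block, limma's trend and robust options, the rank product over 12 pairs of arrays and the Mann-Whitney U test. The probe of CR2 was part of the fit over all probes, and its test result is not used because it was chosen on this contrast.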

Additional observations from a re-analysis of the deposited data

How the results depend on the processing

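The number of genes called between ACHN-HOTAIR and ACHN-EV cells, 30, was 10 with normexp, 11 with no filter on dim probes (34797 genes tested) and 17 with limma's trend and robust options. It was 0 with the Mann-Whitney U test, which also gave 0 at an unadjusted p under 0.05, since 4 against 3 arrays cannot go below an exact p of 0.0571. Leaving out 1 array gave from 7 (without EV 1) to 28 (without EV 2), with 10 without EV 3 or HOTAIR 3, 9 without EV 4 and 8 without HOTAIR 1 or HOTAIR 2. The 5 other settings gave from 20 to 32. With the sample number as a replicate block limma called 0, with 929 at an unadjusted p under 0.05. The deviations of same-numbered samples correlated positively in 1 pair and negatively in the others (r = 0.386, -0.368 and -0.406). The highest r was between samples of unlike number, EV 2 and HOTAIR 3 (0.619). The numbers were therefore not taken to pair the samples.

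The CR2 log2 difference of 2.57 was 0.57 with normexp, 2.50 with the block and from 2.39 to 2.74 with 1 array left out, and the cause of the smaller value was not tested. The count of 0 other complement genes called held in every setting, from which little can be read. The Mann-Whitney U test could not call any gene, the block called 0 of all genes, and several settings called few. CD55 reversed to 0.0703 and CD46 to -0.0115 with normexp, and C3 to 0.00796 in the deposited table. With 1 array left out CD46 ranged from -0.0932 (without EV 2) to 0.329 and C3 from -0.0984 to 0.0679. CFB, C1S and CD59 kept their direction in every setting. Centring moved the median of all tested probes by under 0.1. Low signal limits CR2 in ACHN-EV cells, CR1 and CFI to bounds.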

Other observations

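Outside the complement genes, HLA-DRB5, SYK and CD24 were among the 30 genes called. They were picked from these after their values were seen, so their values are given without p-values. HLA-DRB5, a class II antigen-presentation gene with near-identical relatives, read -6.93, -6.51, -7.11 and -6.31 on the EV arrays and -4.84, -4.62 and -5.18 on the HOTAIR arrays. It was well above background on none of the EV arrays. Against the floor described for CR2, it was 2.55-fold higher in ACHN-HOTAIR cells. It entered the tested set only through the group in which it was high. SYK, a kinase that acts below the B cell receptor, had a log2 difference of 1.58 without overlap between the groups. CD24, a surface glycoprotein of B cells and epithelia, read 2.22, 2.37, 2.29 and 2.49 on the EV arrays and 1.12, 1.18 and 1.49 on the HOTAIR arrays, a log2 difference of -1.08. The array's annotation places this CD24 probe on chromosome Y.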
